A study of Mus musculus with 15 samples.

Results

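The genes described here are 42 listed genes of mitosis and the kinetochore, chosen by name out of 21889 genes in the deposited gene tables. Of these, 41 were measured and Aurka was not analysed here. All 41 passed the filter on low counts that left 15259 genes for testing. RNA-seq of poly(A) RNA was made from 15 libraries of mouse cerebellum, 3 per group. The GNP groups are cerebellar granule neuron precursors from E15.5 animals of genotype Math1-GFP (a green fluorescent reporter under Math1, also called Atoh1, the transcription factor that marks this lineage) and from WT animals at P1, P7 and P14. The tumour group (MB) holds medulloblastoma cells from mice with 1 mutant Ptch1 allele (Ptch1 heterozygous), with no age given. Cells of all 5 groups were enriched on a Percoll gradient, which separates cells by density and does not sort them by a marker. The embryonic group differs from the postnatal ones in both age and genotype, and these cannot be told apart. No source used here says whether libraries came from separate animals, pools or tumours, so every p-value measures the spread between libraries, which may be technical.

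Mitosis is entered when cyclin B bound to the kinase Cdk1 is activated. Condensin then compacts the chromosomes, kinetochores form on the centromeres and attach them to spindle microtubules, and a checkpoint holds back the anaphase-promoting complex until every chromosome is attached. Destruction of cyclin B and securin follows, and the central spindle and contractile ring divide the cell. Most of these genes are transcribed in G2 and mitosis, so in a bulk sample their level is widely used as a measure of cycling. Granule neuron precursors divide in the outer layer of the cerebellum in response to Sonic hedgehog, largely after birth, and then leave the cycle and migrate inward as granule neurons. Ptch1 encodes the receptor that restrains this pathway, and its loss in the lineage gives rise to medulloblastoma. In bulk RNA, fewer dividing cells and less of each transcript per dividing cell cannot be told apart.

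Transcription of many of these genes is known to depend on a cell cycle genes homology region (CHR), read by the MuvB complex, and on upstream CCAAT boxes, read by NF-Y. Since the members moved together, their promoters were searched for TTTGAA, the common form of the CHR, and for CCAAT, on both strands. RefSeq (GRCm38.p6) windows from 250 bases before to 50 bases after an annotated start were available for 33 of the 41 genes, 35 windows in all. Base 251 of a window is taken as the start. It was the gene's outermost annotated start in 18 windows and lay 5 to 71 bases downstream of it in 12. In the other 5, those of Cdc25b, Ect2, Kif2c and Ncapd2, it lay 375 to 3852 bases downstream, so these windows cover a start within the gene. TTTGAA was found in 24 of these 33 (72.7%), against 20.2% of 27025 genes with a window and 14.3% of the 11565 tested genes with one. CCAAT was found in 25 (75.8%), against 41.1% and 42% of the same sets. Both were present in 21 (63.6%), against 7.97% and 5.78%. Among 66 other mitotic genes with a window, TTTGAA was present in 48.5%, and among 31 DNA replication genes in 19.4%. In 21 of the 24 members, a TTTGAA began within 40 bases before the start or lay after it. A match is a description of these letters and not a site shown to be used, and a gene without a match lacks only these letters in this window.

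The stretches that follow show the layout for members whose values are given further on. They are written 5′ to 3′ in the direction of the gene, with both motifs in capitals. A CHR on the other strand reads TTCAAA here, and a CCAAT box on the other strand reads ATTGG.
Cdk1, chr10:69352913-69353032, minus strand: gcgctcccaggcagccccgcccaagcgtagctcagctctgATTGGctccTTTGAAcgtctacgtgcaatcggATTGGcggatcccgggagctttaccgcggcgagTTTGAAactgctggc
Mki67, chr7:135716460-135716579, minus strand: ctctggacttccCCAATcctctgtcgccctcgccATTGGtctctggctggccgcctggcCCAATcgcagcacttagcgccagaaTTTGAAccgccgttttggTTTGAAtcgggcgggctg
Top2a, chr11:99024190-99024429, minus strand: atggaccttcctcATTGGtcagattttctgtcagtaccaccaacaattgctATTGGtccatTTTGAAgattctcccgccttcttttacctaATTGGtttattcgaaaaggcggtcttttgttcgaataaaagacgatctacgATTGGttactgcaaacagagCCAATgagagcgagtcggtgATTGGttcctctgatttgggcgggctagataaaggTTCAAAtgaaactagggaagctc
Ncapg, chr5:45669805-45669924, plus strand: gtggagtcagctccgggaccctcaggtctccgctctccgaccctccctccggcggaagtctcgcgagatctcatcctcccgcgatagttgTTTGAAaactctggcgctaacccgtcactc
Kntc1, chr5:123749606-123749725, plus strand: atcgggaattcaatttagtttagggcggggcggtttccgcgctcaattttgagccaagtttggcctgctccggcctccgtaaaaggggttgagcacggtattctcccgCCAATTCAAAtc
Kif11, chr19:37376262-37376381, plus strand: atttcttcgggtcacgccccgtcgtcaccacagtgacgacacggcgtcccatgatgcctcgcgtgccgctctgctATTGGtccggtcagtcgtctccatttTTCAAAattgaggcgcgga
Cdc20, chr4:118437344-118437463, minus strand: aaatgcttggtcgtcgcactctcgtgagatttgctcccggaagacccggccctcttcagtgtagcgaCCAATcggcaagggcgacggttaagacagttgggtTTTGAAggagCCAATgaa
Ube2c, chr2:164769809-164769928, plus strand: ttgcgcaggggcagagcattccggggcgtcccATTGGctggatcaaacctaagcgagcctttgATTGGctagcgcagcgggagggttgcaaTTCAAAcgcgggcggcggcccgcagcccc
Prc1, chr7:80294356-80294475, plus strand: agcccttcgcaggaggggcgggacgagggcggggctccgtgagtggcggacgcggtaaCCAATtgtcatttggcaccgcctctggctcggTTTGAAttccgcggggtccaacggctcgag

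Cdk1, Kif11, Cdc20, Ube2c and Prc1 show a CCAAT box upstream of a TTTGAA close to the start. In Kntc1 the last base of the CCAAT box is also the first base of the TTCAAA. The Ncapg stretch holds a TTTGAA 30 bases before the start and no CCAAT within it. Top2a holds several CCAAT boxes spread over the 240 bases shown. In Mki67 the TTTGAA pair starts 116 and 98 bases before the start used. That start lies 71 bases downstream of the gene's outermost annotated start, so these distances depend on the start chosen. Shorter stretches from 4 further members, 30 bases each around the match, have it past the start, beginning 2 bases after it in Cenpf and Kif23, 4 in Ccnb2 and 30 in Plk1, whose stretch does not reach back to the start.
Ccnb2, chr9:70421535-70421564, minus strand: tcagcggcgcggtaTTTGAAtcgcggaccg
Plk1, chr7:122159453-122159482, plus strand: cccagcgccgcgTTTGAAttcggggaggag
Cenpf, chr1:189688067-189688096, minus strand: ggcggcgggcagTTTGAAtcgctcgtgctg
Kif23, chr9:61946780-61946809, minus strand: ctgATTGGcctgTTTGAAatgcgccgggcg

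The libraries held between 12597472 and 43443132 counts in genes. The lowest count of any member in any library was 233 (Cdc25c in E15.5 replicate 2) and the median was 2664. Levels are CPM, counts scaled to a common library size with TMM factors, and the values of replicates 1, 2 and 3 are given in that order. Atoh1, the lineage factor, was at 124 to 139 CPM at E15.5, 24.5 to 65.4 at P1, 23.6 to 39.1 at P7, 10.9 to 13.1 at P14 and 236 to 322 in MB. Rbfox3, a marker of mature neurons, was at 96.5 to 123.2 CPM at E15.5, 105 to 343 at P1, 406 to 551 at P7, 485 to 551 at P14 and 173 to 290 in MB. Atoh1 was thus lower at P1 and P7, where the mitotic genes were high, than at E15.5, and Rbfox3 at P7 overlapped P14. Gabra6, a marker of mature granule neurons, was at 0 in all E15.5 libraries. Ptch1 lay between 53.9 and 349 CPM, and its counts do not separate the alleles. P1 replicate 3 stood apart from the other P1 libraries, with 343 CPM of Rbfox3 against 111 and 105, and with the highest summed oligodendrocyte markers of the P1 libraries (4096 CPM against 321 and 782). The gene tables were also split into 2 sets, called counting sets here, by the ratio of gene to transcript counts of Tsnax alone. In MB replicate 1, P7 replicates 1 to 3 and E15.5 replicates 1 and 3, its gene count was at most 0.273% of its transcript count. In the other 9 it was at least 92.4%. The labels do not say that the libraries were counted differently. Between these sets the mean log2 ratio of gene to transcript counts of the 41 members differed by at most 0.141. The ratio overlapped between the sets for each of them. Over single libraries the gene count was 41.5% to 56.38% of the transcript count for Ccnb1 and 44.42% to 61.95% for Kif20a. The transcript count is that of 1 transcript per gene, the one with the highest total count over all libraries.

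Summed over the 41 genes, the level was 4179, 4615 and 4053 CPM at E15.5 and 8533, 7640 and 5505 at P1. It was 6774, 9679 and 8020 at P7, 4001, 3605 and 4159 at P14, and 12820, 11340 and 9726 in MB. The E15.5 and P14 libraries lay below every P1 and P7 library, and the MB libraries lay above all others. By gene, the MB mean was the highest of the 5 group means for 39 of the 41, and the exceptions were Ube2c (highest at P7) and Cdc25c (highest at P1). The lowest mean was that of P14 for 29 genes and that of E15.5 for 12. The order MB, P7, P1, E15.5, P14 held for 15 genes, and 9 each had P1 above P7 with either P14 or E15.5 lowest. Neighbouring groups often overlapped. No member had all P1 libraries above all P7 libraries, against 15% of all genes tested. The reverse held for 1 member, Mki67, against 14% of all genes tested. All 3 E15.5 libraries lay above all 3 P14 libraries for 18 genes (32.2% of all genes tested) and below them for 4 (34.3%).

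**Figure D1:**
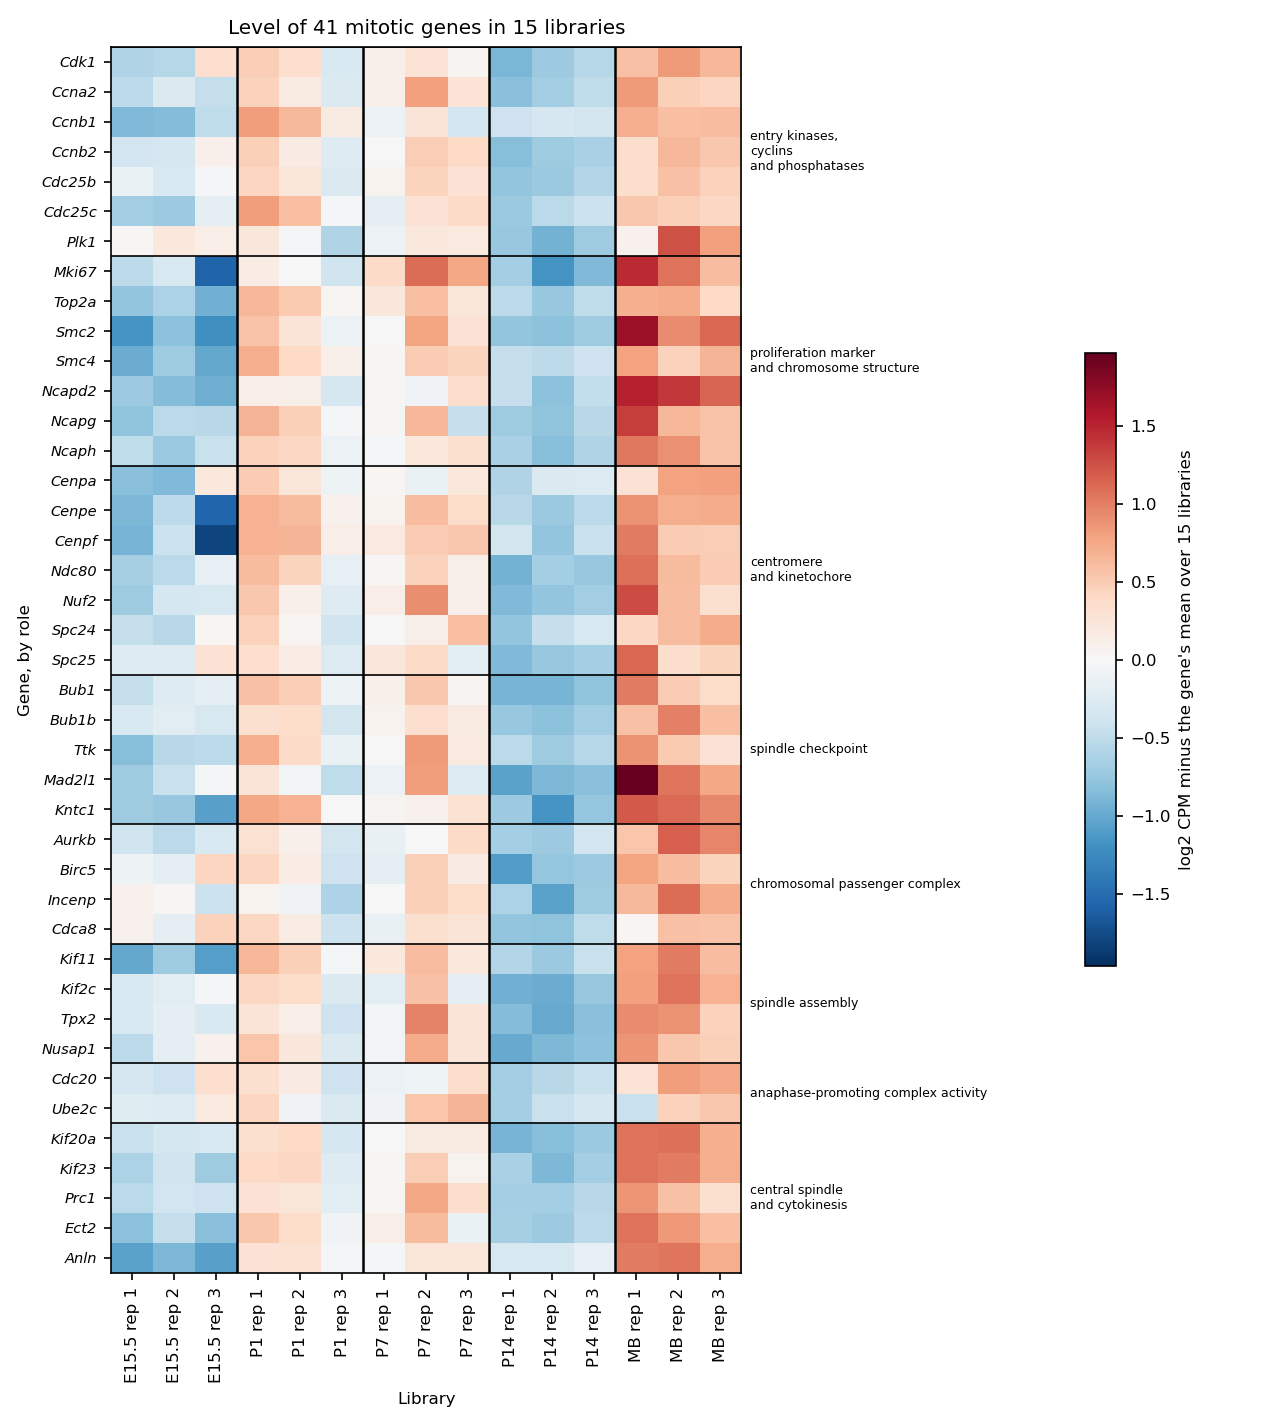
Level of each of the 41 genes (rows, grouped by role) in each of the 15 libraries (columns), as log2 CPM minus the gene's mean over all libraries. Blue marks libraries below and red those above that mean, with E15.5 and P14 mostly blue and MB mostly red.

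Within groups the libraries did not scatter independently from gene to gene. P1 replicate 3 was the lowest P1 library for all 41 genes and P1 replicate 1 the highest for 37. P7 replicate 2 was the highest P7 library for 31 genes and P7 replicate 1 the lowest for 30. The median coefficient of variation of the members was 24% at P1, against 14.9% over all genes tested, and 8.88% at P14, against 10%. The 41 genes are thus not independent repeats of a comparison. Per kilobase of transcript, which allows genes to be compared, the highest level was that of Mki67 in MB (213 CPM per kb), and Kntc1 had the lowest level in all 5 groups (5.69 CPM per kb at P14 and 22.0 in MB).

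From E15.5 to P1 the genes of chromosome structure, cytokinesis and part of the kinetochore rose. By edgeR's quasi-likelihood test, at an adjusted p (FDR, Benjamini-Hochberg over all 15259 genes) under 0.05, 21 of the 41 were higher at P1, where 25.4% of all genes tested were called higher. Their fold changes ran from 1.43 (Kif20a, a kinesin of the central spindle) to 2.73 (Cenpf, an outer kinetochore protein). The median log2 change over the 41 was 0.60, against 0.03 over all genes. Of the 20 that did not pass, 3 had a lower mean at P1, namely Plk1, Incenp and Cdca8. All P1 libraries lay above all E15.5 libraries for 20 genes, as for 30.5% of all genes. Of the 21 calls, 15 held under every alternative, and those of Ccna2, Kif20a, Prc1, Bub1, Ndc80 and Kif23 did not. Leaving out a single library ended each of these calls except that of Kif23. The counts came to 16 to 26 without 1 library. In those fits 36.6% to 44.5% of all genes were called in either direction, against 46.3% in the main fit. Scaling by total counts alone gave 32 (45.9% of all genes), a scaling that moved the median of all genes to 0.26.

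Markers of other cell types moved with this step. Between E15.5 and P1, all 9 oligodendrocyte, 8 astroglial, 7 endothelial and 7 pericyte and fibroblast markers were called higher, as were 7 of 8 for microglia and macrophages and 5 of 6 for choroid plexus. For GABAergic interneurons 6 of 8 were lower and 1 higher, and for Purkinje cells 3 of 8 were higher and 2 lower. Of all 15259 genes, 3870 were called higher and 3191 lower. The summed endothelial markers were 13.4 to 35.1 CPM at E15.5 and 406 to 613 at P1, and the summed astroglial markers 363 to 488 and 2916 to 4364. Mobp, Sst and Pax2 were at 0 in at least 1 library. Their part in the result was not tested.

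Between P1 and P7 no member passed the test. The count of 0 by edgeR compares with 3.15% of all genes called in either direction, with 3 members at an unadjusted p under 0.05 (Ccnb1, Mki67 and Incenp, against 20.0% of all genes) and with 1 called by DESeq2 (Ccnb1, lower). The median log2 change was 0.03, and 22 members were higher at P7 by any amount, as were 48.6% of all genes. All P7 libraries, and no P1 library, are of the same counting set, so counting set and age cannot be told apart here. The differences between the sets in the mean ratio of gene to transcript counts are given above. Without P1 replicate 3, 1 member was called, Ccnb1, where 5.73% of all genes were called in either direction.

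From P7 to P14 most of the mitotic genes fell. Against P7, 32 of the 41 were called lower, where 4.51% of all genes were, and all 41 were lower by some amount, as were 50.3% of all genes. Among the 32 called, fold changes ran from 1.60 (Ncapd2, a condensin subunit) to 3.17 (Mki67, the antigen used to stain cycling cells). The median log2 change over the 41 was -0.94. Against P1, 29 were called lower, where 5.31% of all genes were, again with all 41 lower by some amount (49.6% of all genes) and a median of -0.92. These comparisons share the P14 libraries. All 3 P14 libraries lay below all 3 P7 libraries for 40 members (21.4% of all genes), with Ccnb1 the exception, and below all 3 P1 libraries for 40 (24.9%), with Spc24 the exception.

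The counts of calls at P14 depended on single libraries, both among the members and over all genes. For P14 against P7 the counting set and the age cannot be told apart. Against P7 there were 0 calls by edgeR without P14 replicate 2 (38 at an unadjusted p under 0.05) and 2 without P7 replicate 2. There were 14 without P14 replicate 1, 18 without P14 replicate 3 and 2 with a term for the counting set. The share of all genes called in either direction was 0.809%, 1.02%, 2.8%, 2.87% and 1.93% in that order. In the main fit it was 10.3%. Against P1 there were 2 without P1 replicate 1, 2 without P1 replicate 2 and 2 without P14 replicate 2 (1.06%, 1.27% and 0.997% of all genes). There were 6 without P14 replicate 1 or 3 (1.9% and 1.39%) and 37 without P1 replicate 3 (17.5%). In the main fit 8.94% of all genes were called. Over the same alternatives all 41 changes stayed below 0, and the median stayed between -1.05 and -0.82 against P7 and between -1.08 and -0.74 against P1. Within the counting set that holds both P1 and P14 whole, 40 members were called lower, where 30.3% of all genes were called in either direction. Only Bub1 and Kntc1 were called lower against P1 under every alternative run, and the other 27 calls were each lost under 3 to 6 of 16. Against P7 each of the 32 calls was lost under 2 to 8 of 15, with Cdk1, Plk1 and Ube2c lost under 8.

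Markers of other cell types also differed at P14. The summed oligodendrocyte markers were 6551 to 7102 CPM, against 884 to 1965 at P7 and 321 to 4096 at P1, and the summed endothelial markers were 756 to 784 CPM, against 304 to 363 at P7 and 406 to 613 at P1. Against P7, 3 of 9 oligodendrocyte, 2 of 7 endothelial, 2 of 7 pericyte and fibroblast, 1 of 6 choroid plexus and 1 of 8 astroglial markers were called higher. Against P1 it was 1 of 9 and 1 of 8 for oligodendrocytes and astroglia. Called lower than at P7 were 1 of 8 Purkinje cell and 1 of 8 GABAergic interneuron markers, and than at P1, 1 of 8 and 2 of 8. Of all 15259 genes, 886 were higher and 688 lower against P7, and 554 and 810 against P1. The part of these cells in the lower mitotic levels was not tested.

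**Figure D2:**
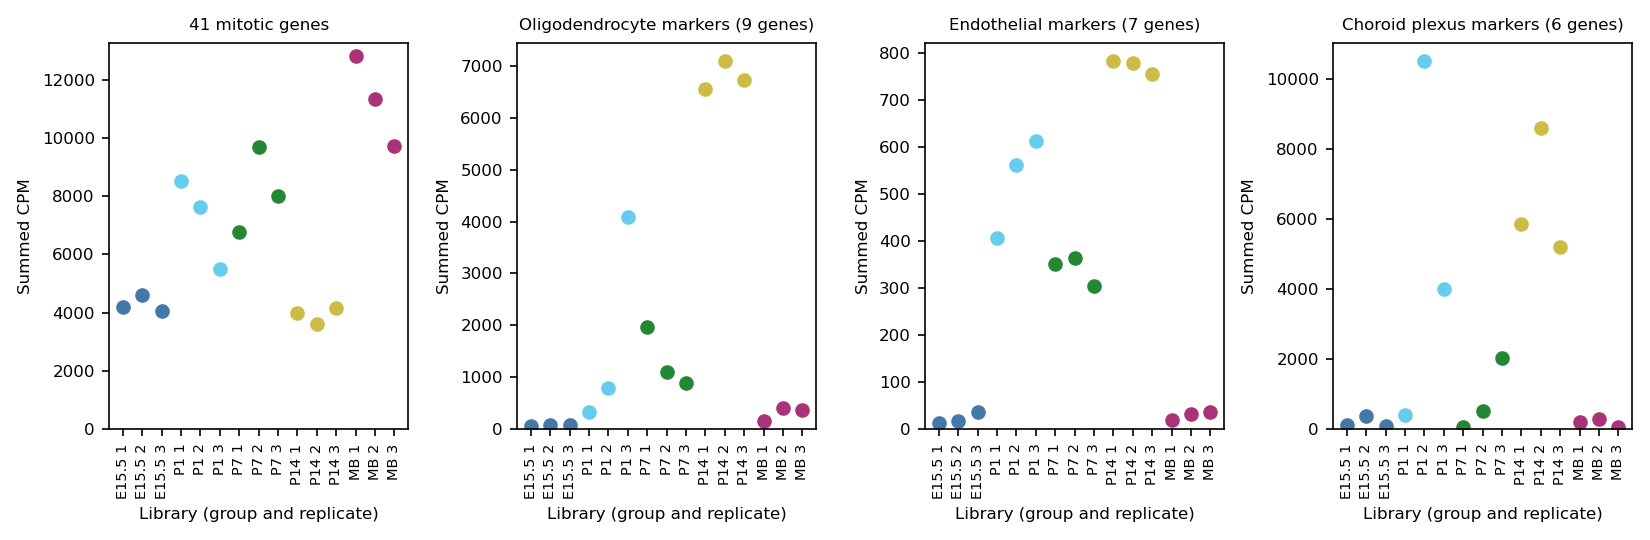
Summed CPM in each of the 15 libraries, coloured by group, for the 41 mitotic genes and for the markers of oligodendrocytes, endothelium and choroid plexus. The mitotic sum was 3605 to 4159 CPM in the P14 libraries and 9726 to 12820 in MB, while the oligodendrocyte sum was highest in the P14 libraries.

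In medulloblastoma most mitotic genes had their highest levels, with smaller differences from P7 than from P14. Against P7, 15 of the 41 were called higher, where 13.7% of all genes were, with a median log2 change of 0.53. Only Ncapd2 (2.36-fold) and the checkpoint gene Mad2l1 (2.17-fold) were called and past 2-fold, as were 7.18% of all genes. By any amount 40 of the 41 were higher in MB (51.2% of all genes), with Ube2c the exception. All MB libraries lay above all P7 libraries for 18 genes, as for 17.7% of all genes. The calls fell to 9 without P7 replicate 1 and to 8 without P7 replicate 3. In those fits 28.3% and 29.9% of all genes were called in either direction, against 34.5% in the main fit. Of the 15 calls, 7 held under every alternative: Smc2, Ncapd2, Ncaph, Kntc1, Kif20a, Kif23 and Anln. Those 7 are condensin, checkpoint and cytokinesis genes.

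Against P14, all 41 were called higher in MB, where 22.9% of all genes were. The fold changes ran from 1.63 (Ube2c) to 4.82 (Mad2l1), 40 of the 41 were past 2-fold (11.4% of all genes), and the median log2 change was 1.46. All MB libraries lay above all P14 libraries for 40 genes (28.7% of all genes), Ube2c again being the exception. Apart from Ube2c, each call held under every alternative run. In these comparisons 7 of 7 endothelial and 7 of 7 pericyte and fibroblast markers were called lower in MB than at P7 and than at P14, as were 7 of 9 oligodendrocyte and 5 of 8 astroglial markers. Of the Purkinje cell markers 7 of 8 were lower than at P7 and 6 of 8 than at P14, of the GABAergic interneuron markers 6 of 8 and 7 of 8, of the granule lineage genes 5 of 12 and 8 of 12, and of the choroid plexus markers 1 of 6 and 4 of 6. Called higher in MB than at P7 were 2 astroglial, 2 granule lineage, 1 Purkinje cell and 1 oligodendrocyte marker. Against P14 it was 2 granule lineage genes and 1 marker each of Purkinje cells, GABAergic interneurons and oligodendrocytes. Of all 15259 genes, 3161 were called lower in MB than at P7 and 4145 than at P14. In both comparisons 5 of 8 microglia and macrophage markers were called higher. The summed endothelial markers in MB were 19.3 to 35.4 CPM and the summed microglia and macrophage markers 172 to 457. Their part in the result was not tested.

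**Figure D3:**
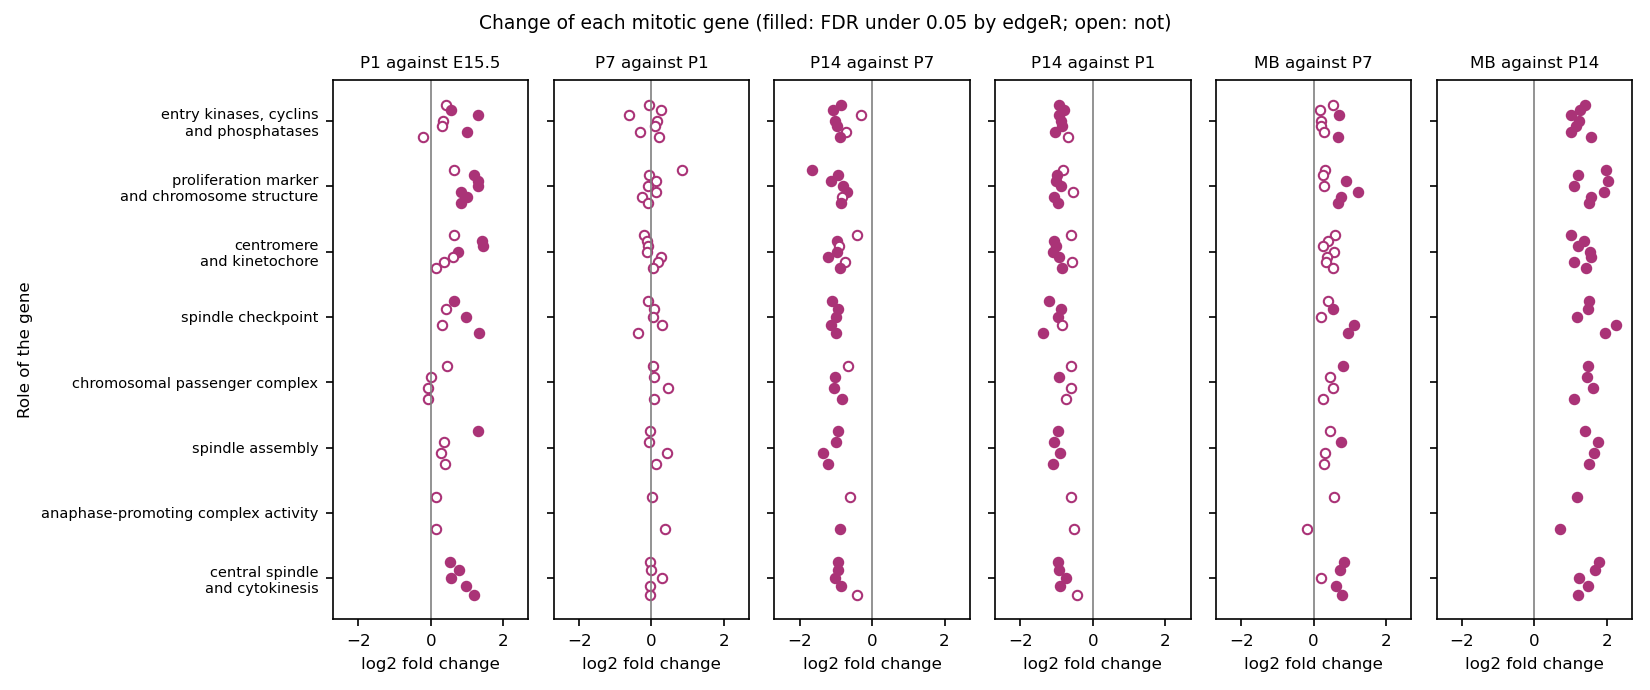
log2 fold change (horizontal axis) of each of the 41 genes in 6 comparisons, by role (vertical axis). Filled points passed an FDR of 0.05 by edgeR. At P14 against P7 and P1 all points lie left of 0, at MB against P14 all lie right of it and are filled, and at P7 against P1 all are open.

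Counts by role stand against the shares of all genes tested, which were 25.4% called higher at P1 than at E15.5, 4.51% lower at P14 than at P7, 5.31% lower at P14 than at P1 and 13.7% higher in MB than at P7. With 2 to 7 genes a role, a count such as 1 of 4 does not stand apart from the first of these shares. Among the kinases, cyclins and phosphatases of mitotic entry, 3 of 7 were called higher at P1 than at E15.5 (Ccnb1, Cdc25c and Ccna2), 5 lower at P14 than at P7, 6 lower at P14 than at P1, and 2 higher in MB than at P7 (Ccnb1 and Plk1). Ccnb1, cyclin B1 (mm9 chr13:101548605-101556525, minus strand), was at 25.9, 26.1 and 33.5 CPM at E15.5, 83.7, 73.9 and 53.7 at P1, 43.5, 56.5 and 36.5 at P7, 35.8, 37.5 and 36.7 at P14, and 78.0, 71.0 and 72.3 in MB. Every P1 library lay above every E15.5 library, the P7 and P14 libraries overlapped, and MB lay within the P1 range. Its rise to P1 was 2.47-fold (log2 change 1.30, SE 0.20, FDR 1.12e-04), the change from P1 to P7 missed the threshold (-0.63, SE 0.20, FDR 0.0882), and it was 1.62-fold higher in MB than at P7 (0.70, SE 0.20, FDR 0.0119). DESeq2, the correction for base composition and length, and the fit without P1 replicate 3 each called Ccnb1 lower at P7, as did scaling by total counts. The difference of MB from P7 lost its call without P7 replicate 3 and within 1 counting set.

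Cdk1, the kinase that cyclin B activates (mm9 chr10:68799383-68815686, minus strand), was at 77.1, 79.3 and 146 CPM at E15.5, 162, 147 and 94.8 at P1, 125, 140.5 and 121 at P7, 62.3, 70.7 and 79.0 at P14, and 174, 209 and 183 in MB. E15.5 replicate 3 lay well above the other E15.5 libraries, and all P14 libraries lay below all P7 and P1 libraries. It fell 1.82-fold from P7 to P14 (log2 change -0.87, SE 0.24, FDR 0.0360), a call lost under 8 of 15 alternatives, among them each fit that left out 1 P7 or P14 library. At MB against P7 it gave 0.55 (FDR 0.0951). Ccna2, cyclin A2, was at 159.8, 186 and 164 CPM at E15.5, 312, 257 and 188 at P1, 243, 398 and 275 at P7, 129, 143 and 161 at P14, and 408, 316 and 306 in MB. It rose 1.49-fold to P1 (log2 change 0.57, SE 0.22, FDR 0.0441), a call lost under 10 of the alternatives, and fell 2.12-fold from P7 to P14 (FDR 0.0112).

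Plk1, the kinase that drives centrosome maturation and entry (mm9 chr7:129302951-129313389, plus strand), did not follow Ccnb1 at P1. Its levels were 65.1, 73.7 and 70.5 CPM at E15.5, 74.4, 62.8 and 42.5 at P1, 59.0, 73.8 and 73.3 at P7, 38.5, 33.6 and 39.6 at P14, and 67.8, 152 and 112 in MB. E15.5, P1 and P7 overlapped, P14 lay below them all, and MB replicate 1 lay within the P7 range while the other MB libraries lay above it. The change from E15.5 to P1 was -0.22 (FDR 0.499), and the difference of MB from P7 (0.69, SE 0.25, FDR 0.0460) lost its call under 12 of 16 alternatives, including without MB replicate 2 (0.39). Cdc25b and Cdc25c encode the phosphatases that remove the inhibitory phosphates from Cdk1. Cdc25c rose 1.99-fold to P1 (log2 change 0.99, SE 0.23, FDR 0.00254), while Cdc25b gave 0.30 (FDR 0.181). Ccnb2, the other B cyclin measured, fell 2.04-fold from P7 to P14 (log2 change -1.03, SE 0.20, FDR 0.0101).

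**Figure D4:**
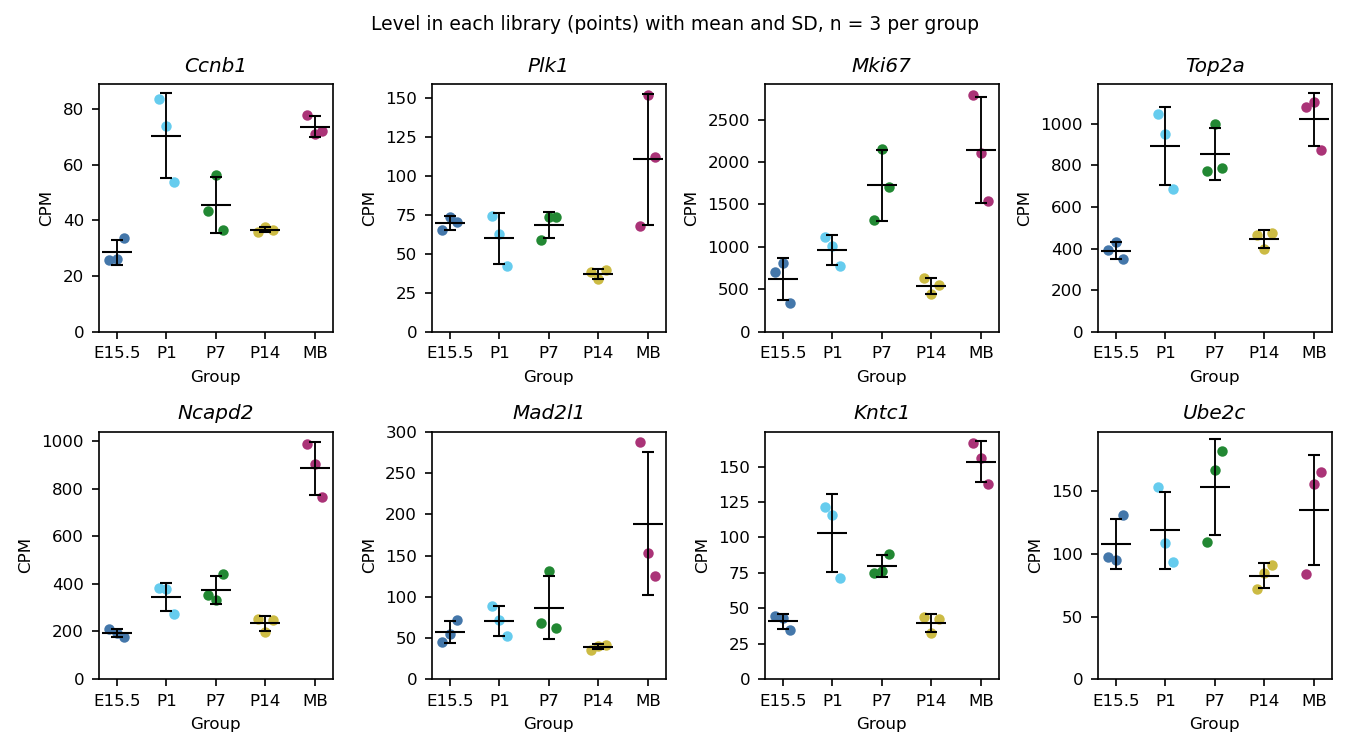
CPM (vertical axes, from 0) of 8 of the genes in each library (points) of the 5 groups, with the group mean and SD (n = 3). Ncapd2 and Kntc1 show MB libraries above all others, Ccnb1 shows P1 at the level of MB, and Ube2c shows MB overlapping P7.

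Proliferation marker and chromosome structure genes gave 6 of 7 calls at P1 against E15.5, all but Mki67, and 4 of 7 at MB against P7 (Smc2, Ncapd2, Ncapg and Ncaph, all condensin). At P14, 6 were lower against P7 and 5 against P1. Mki67, whose protein coats mitotic chromosomes (mm9 chr7:142881471-142908062, minus strand), was at 708, 813 and 339 CPM at E15.5, 1115, 1011 and 771 at P1, 1314, 2150 and 1709 at P7, 635, 448 and 551 at P14, and 2790, 2104 and 1537 in MB. E15.5 replicate 3 lay below the other 2 E15.5 libraries, every P7 library lay above every P1 library, and the MB and P7 libraries overlapped. The step from P1 to P7 was 1.79-fold and missed the threshold (log2 change 0.84, SE 0.31, FDR 0.154), the fall from P7 to P14 was 3.17-fold (-1.66, SE 0.32, FDR 0.00952), and MB against P7 gave 0.31 (FDR 0.476). With the correction for base composition and length Mki67 was called higher at P7 than at P1. The fall lost its call without P7 replicate 2, without P14 replicate 2 and with the term for the counting set.

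Top2a, topoisomerase II alpha, which untangles sister chromatids (mm9 chr11:98854257-98885503, minus strand), was at 391, 434 and 348 CPM at E15.5, 1048, 951 and 685 at P1, 776, 998 and 788 at P7, 466, 398 and 473 at P14, and 1082, 1107 and 876 in MB. It rose 2.29-fold from E15.5 to P1 (log2 change 1.19, SE 0.20, FDR 2.18e-04), with no overlap, and its MB and P1 libraries overlapped. Smc2 and Smc4 are the ATPases of condensin. Smc2 (mm9 chr4:52452115-52501132, plus strand) was at 116, 149 and 113 CPM at E15.5, 382, 309 and 239 at P1, 258, 445 and 315 at P7, 152, 149.7 and 161 at P14, and 834, 494 and 568 in MB. It rose 2.46-fold to P1 (1.30, SE 0.25, FDR 6.21e-04) and was 1.86-fold higher in MB than at P7 (0.90, SE 0.24, FDR 0.00948), with all MB libraries above all P7 libraries. Smc4 rose 2.47-fold to P1 (FDR 8.06e-05) but gave 0.30 at MB against P7 (FDR 0.241).

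Ncapd2, Ncapg and Ncaph are the other condensin I subunits of the list. Ncapd2 (mm9 chr6:125118027-125141613, minus strand) was at 212, 193 and 178 CPM at E15.5, 381, 377 and 275 at P1, 352, 332 and 440.2 at P7, 254, 199 and 248 at P14, and 988, 902 and 766 in MB. The MB libraries lay above all others, and E15.5 and P14 overlapped at the bottom. It was 2.36-fold higher in MB than at P7 (log2 change 1.24, SE 0.19, FDR 1.15e-04), a call held under every alternative. Ncaph was 1.59-fold higher in MB (0.67, SE 0.18, FDR 0.0104). Ncapg was 1.69-fold higher (0.76, SE 0.27, FDR 0.0410), but its call ended without P7 replicate 1 or 3 and without MB replicate 1 (0.46), which was the highest MB library at 222 CPM against 136 and 128.

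Of the 7 centromere and kinetochore genes, 3 were called higher at P1 than at E15.5 (Cenpe, Cenpf and Ndc80), 4 lower at P14 than at P7 and 5 lower at P14 than at P1. By edgeR 0 were called at MB against P7, with 3 at an unadjusted p under 0.05 (Cenpa, Ndc80 and Spc25) and 0 by DESeq2, and all 7 were called higher in MB than at P14. Cenpe, the kinesin that carries chromosomes to the spindle equator (mm9 chr3:134875527-134936504, plus strand), was at 81.0, 105 and 51.1 CPM at E15.5, 241, 230 and 158 at P1, 158, 228 and 193 at P7, 102, 89.96 and 104 at P14, and 274, 246 and 248 in MB. It rose 2.66-fold to P1 (log2 change 1.41, SE 0.24, FDR 2.56e-04) and fell 2.12-fold from P1 to P14 (-1.09, SE 0.24, FDR 0.0150). The E15.5 libraries spread widely, from 51.1 to 105 CPM, and all lay below P1.

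Cenpf, an outer kinetochore protein (mm9 chr1:191464478-191511965, minus strand), was at 172, 241 and 92.9 CPM at E15.5, 519, 510.1 and 354 at P1, 368, 458 and 465 at P7, 253, 188 and 239 at P14, and 652, 456 and 451 in MB. Like Cenpe it was lowest in E15.5 replicate 3, and it rose 2.73-fold to P1 (log2 change 1.45, SE 0.29, FDR 9.44e-04). Cenpa, the histone variant that marks centromeres, had its highest E15.5 value in that same library (43.2, 42.2 and 88.0 CPM) and gave 0.64 at P1 against E15.5 (FDR 0.0590). It was called higher at P1 under 8 of 16 alternatives, among them DESeq2, the replicate block, the transcript counts, the correction for base composition and length, and the fits without E15.5 replicate 3 or P1 replicate 3.

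Ndc80, Nuf2, Spc24 and Spc25 form the complex that binds microtubules at the kinetochore. Ndc80 (mm9 chr17:71845440-71876197, minus strand) was at 25.3, 27.6 and 35.6 CPM at E15.5, 60.9, 54.0 and 35.5 at P1, 40.3, 54.1 and 43.0 at P7, 20.8, 24.9 and 23.8 at P14, and 84.5, 61.1 and 56.1 in MB. P1 replicate 3 lay within the E15.5 range, and P14 lay below all other groups. Its rise to P1 was 1.70-fold (log2 change 0.76, SE 0.23, FDR 0.0129), a call lost without E15.5 replicate 1 or P1 replicate 1, and its fall from P1 to P14 2.16-fold (-1.11, SE 0.23, FDR 0.0120). From E15.5 to P1 the other subunits gave 0.60 for Nuf2 (FDR 0.0839), 0.37 for Spc24 (FDR 0.215) and 0.14 for Spc25 (FDR 0.653). Whether the 4 subunits differ from one another was not tested. Nuf2 and Spc25 were called lower at P14 than at both P7 and P1, and Spc24 at neither (FDR 0.0564 and 0.132).

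All 5 spindle checkpoint genes were called lower at P14 than at P7, and 4 of 5 were called lower at P14 than at P1. Mad2l1 was also lower at P14 than at P1 but missed the threshold (log2 change -0.85, FDR 0.111). Bub1, Ttk and Kntc1 were called higher at P1 than at E15.5, and Bub1b, Mad2l1 and Kntc1 higher in MB than at P7. Kntc1, which brings the dynein adaptor of the checkpoint to kinetochores as part of the RZZ complex (mm9 chr5:124199735-124271602, plus strand), was at 44.6, 43.3 and 34.6 CPM at E15.5, 122, 116 and 71.5 at P1, 74.7, 76.3 and 88.5 at P7, 44.0, 32.5 and 42.5 at P14, and 167, 156 and 138 in MB. E15.5 and P14 overlapped at the bottom, P1 replicate 3 lay below every P7 library, and MB lay above all. It rose 2.52-fold to P1 (log2 change 1.34, SE 0.20, FDR 1.15e-04), fell 2.60-fold from P1 to P14 (-1.38, SE 0.20, FDR 0.00181) and was 1.92-fold higher in MB than at P7 (0.94, SE 0.20, FDR 0.00195). These calls held under every alternative.

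Mad2l1, the protein that inhibits Cdc20 while the checkpoint is on (mm9 chr6:66485384-66491027, plus strand), was at 45.5, 54.5 and 71.8 CPM at E15.5, 88.2, 71.2 and 52.4 at P1, 68.0, 131 and 61.6 at P7, 35.8, 40.05 and 41.7 at P14, and 288, 153 and 125 in MB. A single library set the top of both the P7 and the MB range, P7 replicate 2 and MB replicate 1, and the groups overlapped. The difference of MB from P7 was 2.17-fold (log2 change 1.12, SE 0.33, FDR 0.0152). Without MB replicate 1 it was 0.68 and was not called, nor was it without P7 replicate 1 or 3 (1.01 and 0.92). Against P14 it was 4.82-fold (2.27, SE 0.34, FDR 6.48e-05).

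Bub1, the checkpoint kinase at kinetochores (mm9 chr2:127626858-127657601, minus strand), was at 58.7, 68.1 and 71.8 CPM at E15.5, 121, 114 and 76.1 at P1, 86.8, 116 and 84.6 at P7, 43.1, 43.2 and 46.9 at P14, and 164, 115 and 104 in MB. It fell 2.33-fold from P1 to P14 (log2 change -1.22, SE 0.21, FDR 0.00516) under every alternative, while its rise to P1 lost its call without E15.5 replicate 1 and without P1 replicate 1 or 2. Bub1b, which encodes BubR1 of the mitotic checkpoint complex, was 1.45-fold higher in MB than at P7 (0.53, SE 0.19, FDR 0.0363), a call lost under 8 of 16 alternatives. Ttk, the kinase Mps1 that starts checkpoint signalling, rose 1.98-fold to P1 (0.98, SE 0.24, FDR 0.00420).

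The chromosomal passenger complex, which corrects faulty attachments, had no called gene between E15.5 and P1. By edgeR 0 of its 4 measured genes were called at P1 against E15.5, also 0 at an unadjusted p under 0.05 and 0 by DESeq2. Birc5, survivin (mm9 chr11:117710565-117717046, plus strand), was at 57.7, 54.5 and 82.6 CPM at E15.5, 82.6, 68.1 and 46.4 at P1, 53.8, 85.2 and 69.1 at P7, 28.9, 36.4 and 37.6 at P14, and 106, 94.2 and 83.6 in MB. Its E15.5, P1 and P7 libraries overlapped, and P14 lay below them. The change to P1 was log2 change 0.02, SE 0.24, FDR 0.965, and it fell 2.02-fold from P7 to P14 (-1.02, SE 0.24, FDR 0.0188). Incenp, the scaffold, gave -0.09 (FDR 0.768) and Cdca8, borealin, -0.07 (FDR 0.838) at P1 against E15.5. Aurkb gave 0.45 (SE 0.21, FDR 0.0938) and was called higher at P1 under 3 of 16 alternatives, which were scaling by total counts, the correction for base composition and length, and the fit without P1 replicate 3. That this complex differed from the other roles was not tested.

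Aurkb, the kinase of the complex (mm9 chr11:68859154-68865166, plus strand), was at 51.8, 46.9 and 55.4 CPM at E15.5, 84.0, 72.9 and 53.2 at P1, 61.4, 67.8 and 88.2 at P7, 42.9, 41.6 and 52.6 at P14, and 99.5, 154 and 131 in MB. All MB libraries lay above all others. It was 1.77-fold higher in MB than at P7 (log2 change 0.82, SE 0.21, FDR 0.00647), the only call of the 4 in that comparison, and gave -0.67 at P14 against P7 (FDR 0.0551). Within 1 counting set, where MB is replicate 1 alone and its spread is taken from the other groups, the difference from P7 was 0.50 and not called, and with the term for the counting set it was 0.70 and not called.

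All 4 spindle assembly genes fell from P7 to P14 and from P1 to P14, and Kif11 was the 1 of 4 called at P1 against E15.5, a share near that of all genes. Kif11, the kinesin Eg5 that pushes spindle poles apart (mm9 chr19:37450893-37496349, plus strand), was at 101, 124 and 95.01 CPM at E15.5, 317, 281 and 199 at P1, 234, 307 and 233 at P7, 135, 122 and 149 at P14, and 348, 411 and 307 in MB. Its rise to P1 was 2.49-fold (log2 change 1.31, SE 0.20, FDR 1.14e-04), with no overlap between the groups. Tpx2, which activates Aurora A on the spindle, was at 194, 210.2 and 196 CPM at E15.5, 288, 264 and 182 at P1, 232, 474 and 288 at P7, 134, 121 and 136 at P14, and 457, 445 and 328 in MB. P7 replicate 2 lay above every other library of the series, and the fall to P14 was 2.54-fold (log2 change -1.34, SE 0.25, FDR 0.00873). Kif2c, a microtubule-depolymerising kinesin at centromeres, was 1.68-fold higher in MB than at P7 (0.75, SE 0.23, FDR 0.0181), a call lost under 6 alternatives, and Nusap1, which bundles spindle microtubules, gave 0.29 (FDR 0.374).

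The genes of anaphase-promoting complex activity were called in few of the comparisons. Cdc20, its mitotic activator (mm9 chr4:118105506-118109957, minus strand), was at 85.8, 81.3 and 136 CPM at E15.5, 134, 121 and 82.0 at P1, 100.1, 103 and 137 at P7, 67.8, 74.5 and 80.2 at P14, and 130.5, 192 and 182 in MB. Ube2c, its ubiquitin-conjugating enzyme (mm9 chr2:164595398-164598407, plus strand), was at 97.2, 95.04 and 131 CPM at E15.5, 154, 109 and 94.0 at P1, 109.7, 168 and 183 at P7, 71.9, 85.1 and 91.4 at P14, and 84.3, 156 and 165 in MB. MB replicate 1 lay within the P14 range for Ube2c, while MB replicates 2 and 3 lay within the P7 range. By edgeR neither was called at P1 against E15.5 (0 at an unadjusted p under 0.05, 0 by DESeq2), at MB against P7 (1 and 0) or at P14 against P1 (1 and 0). Both were called higher in MB than at P14. For both, all P14 libraries lay below all P7 and all P1 libraries. Ube2c fell 1.85-fold from P7 to P14 (log2 change -0.89, SE 0.27, FDR 0.0479), lost under 8 of 15 alternatives, and MB against P7 gave -0.18, SE 0.27, FDR 0.646. Cdc20, Ube2c and Cenpa were the 3 members not called by edgeR in the test for any difference among the 4 ages, in which 38 of 41 were called, where 55.7% of all genes were. DESeq2 called 39, Ube2c among them, and the correction for base composition and length 41.

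All 5 genes of the central spindle and cytokinesis were called higher at P1 than at E15.5. At P14, 4 were called lower than at P7 and than at P1, and 4 were called higher in MB than at P7. Anln was lower at P14 too, but missed the threshold against P7 (log2 change -0.41, FDR 0.0956) and against P1. The rise to P1 lost its call under 10 of 16 alternatives for Kif20a, under 6 for Prc1 and under 1 for Kif23. Without E15.5 replicate 1, 2 or 3, or without P1 replicate 1 or 2, neither Kif20a nor Prc1 was called. Anln, anillin of the contractile ring (mm9 chr9:22135658-22193650, minus strand), was at 39.95, 45.1 and 39.4 CPM at E15.5, 100.4, 102 and 81.3 at P1, 81.0, 97.7 and 97.4 at P7, 66.7, 66.9 and 74.1 at P14, and 168, 171 and 136 in MB. All P14 libraries lay above all E15.5 libraries, and all MB libraries above all others. It rose 2.28-fold to P1 (log2 change 1.19, SE 0.16, FDR 2.86e-05), gave -0.45 at P14 against P1 (FDR 0.0745) and was 1.72-fold higher in MB than at P7 (0.78, SE 0.15, FDR 9.47e-04).

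Kif23, the kinesin of centralspindlin (mm9 chr9:61765087-61794606, minus strand), was at 62.5, 73.5 and 59.3 CPM at E15.5, 126, 128 and 80.9 at P1, 98.1, 136 and 101 at P7, 62.2, 52.5 and 60.7 at P14, and 202, 196 and 159 in MB. Its P1 and P7 means were both 112 CPM, and all MB libraries lay above all others. It was 1.66-fold higher in MB than at P7 (log2 change 0.73, SE 0.20, FDR 0.00892), and Kif20a, which brings the passenger complex to the midzone, 1.79-fold (0.84, SE 0.18, FDR 0.00236). Ect2, the exchange factor that activates RhoA at the furrow, rose 1.97-fold to P1 (0.98, SE 0.21, FDR 0.00173). Its 1.52-fold difference of MB from P7 (FDR 0.0353) lost its call under 8 alternatives. Prc1, which cross-links the microtubules of the midzone, rose 1.47-fold to P1 (FDR 0.0346) and gave 0.20 in MB against P7 (FDR 0.490).

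The change from E15.5 to P1 was larger for longer transcripts and for those of lower GC content. Over the 41 genes its log2 change had a Spearman rho of 0.651 with transcript length and -0.592 with GC content, against 0.156 and -0.201 over 14494 tested genes with both values. These points share the same 6 libraries. Called were 2 of the 13 shortest, 8 of the 15 middle and 11 of the 13 longest transcripts, with median log2 changes of 0.30, 0.55 and 1.19. Once GC content and length were corrected for, the calls were 5, 8 and 11, the medians 0.39, 0.38 and 0.95, and rho 0.493 and -0.413. The 21 called genes had a median transcript of 3698 bases, and the other 20 one of 2076. Libraries of the same group also differed along length, since the deviation of E15.5 replicate 3 from its group had a rho of -0.873 with length over the members (-0.609 over all genes). At P14 against P1 the members' log2 change had a rho of -0.347 with length and 0.537 with GC content. Over all genes these were -0.073 and 0.389, and for the members after the correction -0.041 and -0.266. The part of RNA quality or library preparation in the rise to P1 or in the fall to P14 was not tested.

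**Figure D5:**
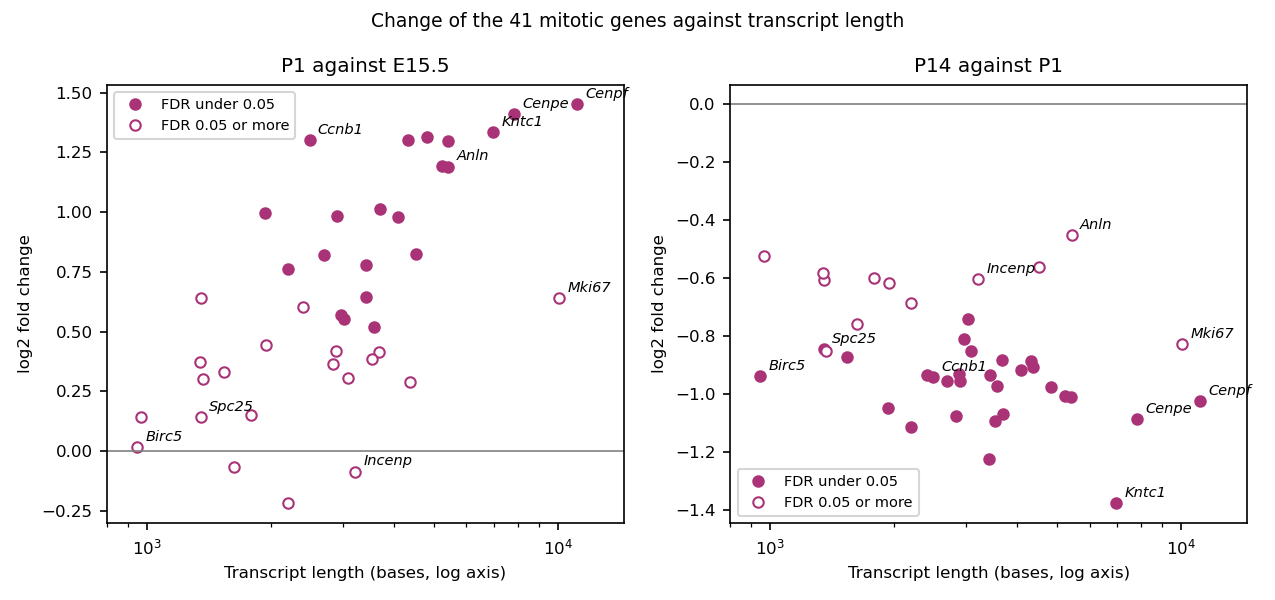
log2 fold change (vertical axis) of the 41 genes against transcript length (horizontal log axis, bases) at P1 against E15.5 and at P14 against P1. Filled points passed an FDR of 0.05. The change to P1 is larger for longer transcripts (rho 0.651). At P14 against P1 all points lie below 0 at every length, with a rho of -0.347.

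Further mitotic genes and the genes of DNA replication were counted for comparison. Of 80 other mitotic genes tested, 28 were higher and 5 lower at P1 than at E15.5, 39 were lower and 0 higher at P14 than at P1, and 43 lower at P14 than at P7. In MB 31 were higher than at P7 and 77 higher than at P14. Their median log2 changes were 0.50, -0.79, -0.81, 0.62 and 1.48 in that order, against 0.60, -0.92, -0.94, 0.53 and 1.46 for the 41 listed genes. The other mitotic genes with the largest falls from P1 to P14 were Cenph at 9.71 ± 0.908 against 25.6 ± 8.13 CPM (log2 change -1.40, SE 0.36, FDR 0.0299), Kif15 at 59.1 ± 6.36 against 152 ± 43.1 CPM (log2 change -1.36, SE 0.23, FDR 0.00366) and Zwilch at 15.2 ± 1.15 against 37.6 ± 10.6 CPM (log2 change -1.31, SE 0.27, FDR 0.0118). Cenph is an inner kinetochore protein, Kif15 a spindle kinesin and Zwilch the partner of Kntc1 in the RZZ complex. In MB against P7 the largest were Pkmyt1 at 54.6 ± 26 against 21.5 ± 0.792 CPM (log2 change 1.34, SE 0.31, FDR 0.00298), Oip5 at 25.2 ± 5.06 against 10.3 ± 1.76 CPM (log2 change 1.29, SE 0.26, FDR 0.00108) and Foxm1 at 388 ± 66.1 against 171 ± 31.9 CPM (log2 change 1.19, SE 0.25, FDR 0.00187). Pkmyt1 inhibits Cdk1, Oip5 helps load Cenpa, and Foxm1 is a transcription factor of G2 and mitosis genes.

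Of the 38 DNA replication genes tested, 7 were called higher and 1 lower at P1 against E15.5 (median log2 change 0.19). At P14, 22 were called lower against P7 (-0.91) and 29 against P1 (-1.04). In MB, 22 were called higher against P7 (0.76) and 38 against P14 (1.65). The largest falls to P14 from P1 were in Mcm6, a subunit of the replicative helicase, at 105 ± 8.93 against 325 ± 93.8 CPM (log2 change -1.63, SE 0.21, FDR 9.32e-04), in Gmnn, geminin, at 10.2 ± 0.897 against 27.1 ± 9.29 CPM (log2 change -1.41, SE 0.27, FDR 0.00883), and in Cdc6, the helicase loader, at 14 ± 1.31 against 35.7 ± 9.41 CPM (log2 change -1.35, SE 0.21, FDR 0.00247). In MB against P7 the largest rises were in Mcm2, another helicase subunit, at 548 ± 64.6 against 202 ± 5.18 CPM (log2 change 1.44, SE 0.21, FDR 7.97e-05), Cdt1, a loader, at 145 ± 36.8 against 56 ± 10.3 CPM (log2 change 1.37, SE 0.24, FDR 4.59e-04), and Pole, the leading-strand polymerase, at 232 ± 77.6 against 95.2 ± 10.5 CPM (log2 change 1.28, SE 0.26, FDR 0.00136). At P1 against E15.5, 7 of 38 replication genes is a share below the 25.4% of all genes called higher, while 51.2% of the 41 mitotic genes were called. At MB against P7, 22 of 38 and 36.6% stand against 13.7% of all genes. Whether mitotic and replication genes differ was not tested.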

How the data were processed

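Poly(A) RNA from 15 libraries was sequenced on an Illumina HiSeq instrument from TruSeq v2 libraries, per the labels' protocols. The authors deposited raw read counts per Ensembl gene, with 5 summary lines in the HTSeq format per the file headers, and 39.5% to 55.4% of each library's records fell in genes. Records in no gene, over several genes or with several alignments (22.9% to 44.6%) were left out. The build mm9 and the tools Trimmomatic, TopHat, StringTie and HTSeq are named, with no role or version, in the submitters' processing notes, and the strand setting is not given in the sources used here, so overlapping and antisense genes cannot be separated. Counts were filtered with filterByExpr (minimum count 10, minimum total 15), scaled with TMM and fitted with 1 mean per group in edgeR 4.0.16 (R 4.3.3, 10 residual degrees of freedom), and the steps were tested on simulated data. Genes were called at an FDR under 0.05 over 15259 genes. Each SE is the absolute log2 change divided by the square root of the F statistic of edgeR's test. DESeq2 1.42.0, other scalings, the deposited transcript count table and leaving out each library were alternatives. The counting-set term and the GC and length correction were chosen after seeing the data. Transcript counts, lengths and GC content are those of the transcript of each gene with the highest total count over all libraries. The 42 genes and the comparison lists were chosen with earlier results of these data known. Any listed gene may be named. Of the other mitotic and replication genes, those named are the 3 with the largest called rise and the 3 with the largest called fall, if any, at P14 against P1 and in MB against P7.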

Additional observations from a re-analysis of the deposited data

How the results depend on the processing

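Of 3854 values of single genes under the alternatives, 3383 kept their direction and their side of the threshold, 357 lost a call (277 of them when a library was left out), 114 gained one, and no called value changed sign. Of 1678 values that were not called, 112 changed sign. Of 115 counts of calls, 98 stayed within 1.5 times. At P1 against E15.5, scaling by total counts alone gave 32. At P7 against P1, DESeq2 gave 1, scaling by total counts 1 and the GC and length correction 2, and leaving out a library gave 0 to 1. At P14 against P7, the term for the counting set gave 2, where 1.93% of all genes were called in either direction. Leaving out a library there gave 0 to 30 (0.809% to 6.96% of all genes). At P14 against P1, leaving out a library gave 2 to 37 (0.997% to 17.5%), and at MB against P7, 8 to 16 (28.3% to 37.8%). The cause of these shifts was not tested. Within 1 counting set 40 were called at P14 against P1 and 41 in MB relative to P14. The other counts there, 17 at P1 against E15.5 and 10 in MB relative to P7, rest on a lone E15.5 library (replicate 2) and a lone MB library (replicate 1), each assumed to vary like the other groups.

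Of 30 same-numbered pairs of libraries in different groups, 7 deviated together with a correlation over 0.1 (range -0.435 to 0.375). Same-numbered libraries thus showed no general common deviation. Whether they were paired or processed together cannot be told from these correlations, since a shared batch need not leave a common deviation. With a replicate block the calls were 21 for P1 against E15.5 and 0 for P7 against P1. The same fit gave 27 for P14 against either earlier postnatal age, 14 for MB against P7, 41 for MB against P14 and 36 over the 4 ages.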
